A study of Ginkgo biloba with 16 samples.

Results

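Levels of microRNAs (miRNAs) and of the genes predicted as their targets were compared in the cambium of 6 female *Ginkgo biloba* trees. The trees were A and B of VC20 (15 and 20 y old), of VC200 (193 and 211 y) and of VC600 (538 and 553 y), and each gave 1 RNA library and 1 small RNA (sRNA) library. Cambial layers had been cut by cryosectioning from trunk blocks that also held phloem and outer xylem. The trees grew under natural conditions without treatment and each library is from 1 tree. The sources do not say whether both libraries of a tree came from 1 extraction. The authors deposited 5157 predicted pairs of a miRNA entry and a target gene. A pair was kept where the entry averaged at least 10 CPM (counts in 1000000 of the library) and the target at least 1 FPKM (fragments, scaled to gene length and library size) over the 6 trees, which left 1185 pairs of 218 entries and 799 targets.

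A miRNA guides an ARGONAUTE protein to messenger RNAs that carry a matching site, and in plants the message is then mostly cut, with blocked translation as the other outcome. Many plant families, such as miR166 and its class III homeodomain-leucine zipper (HD-ZIP III) targets, are ancient and act on transcription factors that pattern the vascular tissue. The cambium is the layer of dividing cells that forms xylem (wood) on its inner side and phloem on its outer side, so changes of these factors bear on how wood is made. The question put to the data was whether a miRNA and its predicted target moved in opposite directions from tree to tree.

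The sRNA libraries held 1184091 to 1842055 counts. Entries of miR165 and miR166 took 24.1 to 27.7% of all counts in the VC20 and VC200 trees but 53.5 and 58.1% in VC600 A and B. Several of these entries have nearly equal counts, such as ath-miR166a-3p (110467 CPM in VC600 A) and cpa-miR166e (110407 CPM). The same reads may thus count more than once in these shares and in the total. The entries predicted by the authors, named novel_ and a number, took 67.3 to 71.5% in the younger groups and 39.6 and 33.7% in VC600. Of these, novel_1 alone took 24.1 to 30.2% in the younger groups and 6.88 and 6.55% in VC600. Since the entries compete for a fixed total, CPM and the scaling by TMM (trimmed mean of M values) differ: the 2 VC20 libraries had effective totals above their counts and the 2 VC600 libraries below. The tissue label was checked on markers. *Gb_05339*, which the study names WOX4, a cambium regulator, stood at 7.29 to 37.2 FPKM and was highest in VC20 B. *Gb_12565*, the other WOX4 gene of the study, was lower in every tree and had another pattern. It was highest in VC600 A (5.71 FPKM, against 3.71 and 4.5 in VC20 A and B) and lowest in VC200 A. The 5 HD-ZIP III genes summed to 62.3 to 178 FPKM. Cambium genes were thus present in every tree. Genes of the xylem cell wall also stood at different levels: the 2 genes named IRX1, a cellulose synthase of the secondary wall, summed to 38.6 and 44.1 FPKM (VC20), 1.49 and 3.73 (VC200) and 19.5 and 21.0 (VC600). The phloem marker *Gb_13931* was highest in VC200 B (41.6 FPKM) and lowest in VC600 B (9.48 FPKM). In bulk tissue, fewer cells of a type and less RNA per cell cannot be told apart.

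Of the 5157 listed pairs, 1383 fell below the miRNA limit only, 846 below the target limit only and 1743 below both. The 218 entries comprise 88 with miRBase names and 130 predicted ones, and they have 205 distinct count profiles, because entries of 1 family can share all their reads. Of the 799 targets, 645 have 1 listed entry and the most for 1 target is 16. The annotation tables name 436 of the 799. At the limits, vvi-miR828a with *Gb_21264* was just inside (10.2 CPM and 1.0 FPKM), while novel_406 (9.67 CPM) and the target *Gb_38841* (0.999 FPKM) were just outside. The entries ranged more widely than the targets: the median range over the 6 trees was 2.28 on the log2(CPM + 1) scale for entries and 0.68 on the log2(FPKM + 1) scale for targets.

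For each pair, Pearson r of log2(CPM + 1) with log2(FPKM + 1) was taken over the 6 trees. Listed pairs centred near 0, with a median r of -0.019 (jackknife SE 0.048 over trees) and quartiles at -0.43 and 0.37. An r below 0 was found in 608 of 1185 pairs (51.3%), against 45.1% of the 172997 combinations of the same entries and targets that the authors did not list, whose median was 0.07. At the extremes, 45 pairs (3.8%) had an r of -0.8 or lower, against 3.6% of the unlisted combinations, and 52 pairs (4.39%) had an r of 0.8 or higher, against 4.76%. With TMM library sizes these were 56 pairs (4.73%) against 3.72%, and 36 pairs (3.04%) against 4.39%. The listed median was lower than the unlisted one by 0.093 (jackknife SE 0.030), and with 1 tree left out the difference ran from -0.120 to -0.079. Counting each unlisted combination in proportion to how often its entry and its target are listed gave a median of 0.06. All these pairs share miRNAs, targets and libraries, so the difference is a description, without a test.

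**Figure D1:**
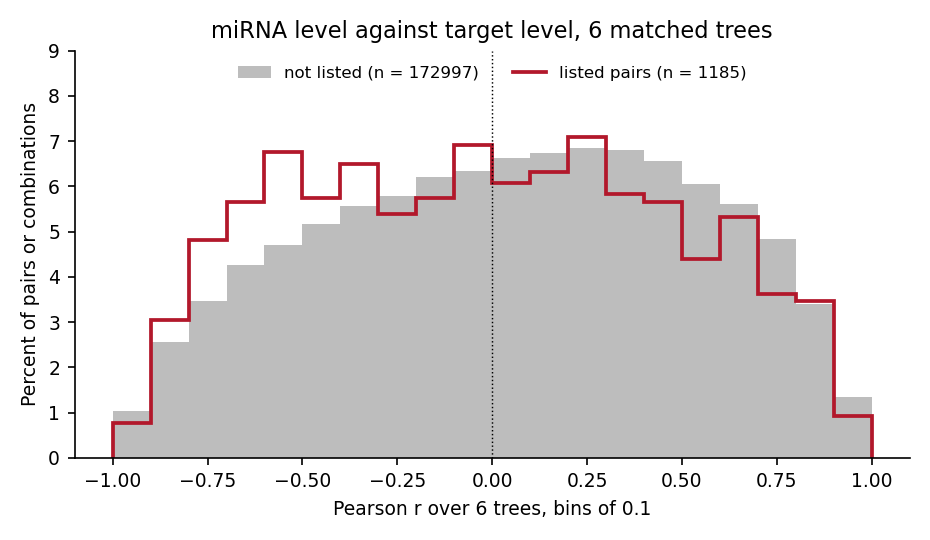
Distribution of Pearson r between miRNA log2(CPM + 1) and target log2(FPKM + 1) over 6 trees, as the share of pairs (y axis, percent) in each interval of r (x axis), for the 1185 listed pairs and for the 172997 combinations that are not listed. Both distributions are broad and centre near 0, with medians of -0.019 and 0.07.

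No pair passed an adjusted p of 0.05 in the exact two-sided permutation test over the 720 orders of the 6 trees. A p of 0.00278 or lower was found for 6 pairs, and the lowest adjusted p over the 1185 pairs was 0.549. At an unadjusted p under 0.05 there were 78 pairs (6.58%), of which 30 had a negative and 48 a positive r. Spearman rho also called 0 pairs, with 59 at an unadjusted p under 0.05. With 720 orders, no pair can pass the adjustment over 1185 pairs unless many share the lowest p, so a call was nearly out of reach. A p of this size does not show that a pair is uncorrelated, since 6 trees in 3 age groups leave little room. The same holds for the adjusted p of the named pairs below.

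Pairs of a family with its classical target class lay lower. Of 25 families whose classical (textbook) target class had been drawn up, 10 kept at least 1 such pair within the limits, in all 133 pairs of 48 entries and 24 targets. For miR390 the class was receptor-like kinases (10 pairs, 7 targets, 8 pairs below 0), although its textbook target is the noncoding TAS3 RNA. The 133 pairs had a median r of -0.27, and 92 of them (69.2%) were below 0. The family of miR165 and miR166, in which many entries have nearly equal counts, gave 75 of the 133 pairs and 58 of the 92. With the same 48 entries and 24 targets in combinations that are not listed, the median of 1019 combinations was 0.04 and 45.9% were below 0. Taking 1 entry per target, that with the highest CPM, the median was -0.30 and 17 of 24 were below 0. The median stayed negative when any 1 tree was left out, but ranged from -0.57 to -0.04. The other 357 pairs of the family entries had a median of 0.08 with 45.4% below 0, close to the unlisted combinations of these entries (46.2%). When the classical pairs were left out, the listed median minus the unlisted one was -0.060, a comparison chosen after the values had been seen. None of the 24 targets was called between age groups in limma, with the lowest adjusted p at 0.058.

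**Figure D2:**
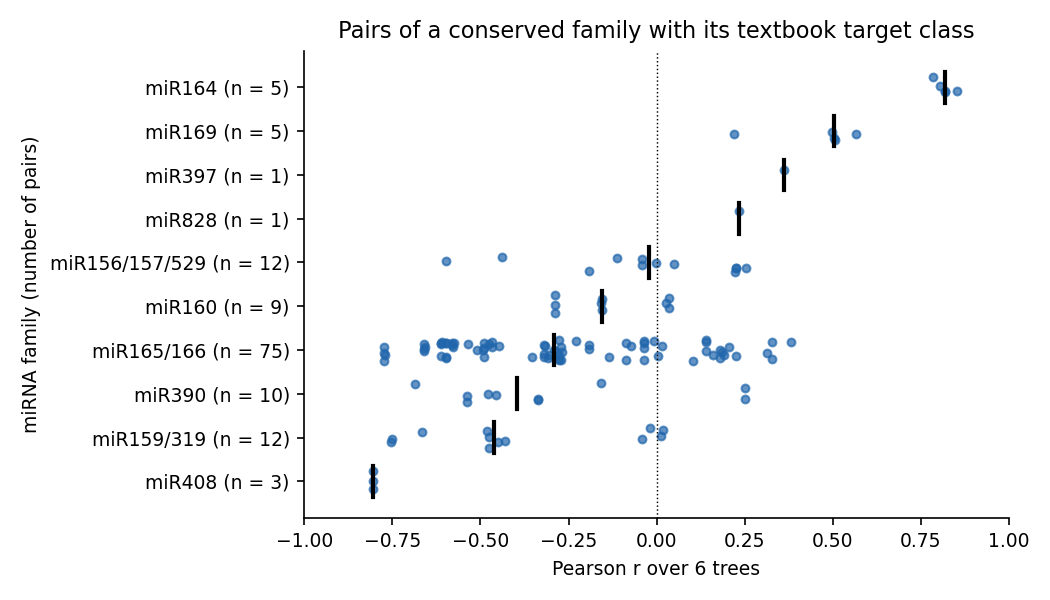
Pearson r over 6 trees (x axis) of each pair of a miRNA family with its classical target class, by family (y axis), where points are pairs and the bar is the family median. Receptor-like kinases are counted as the class of miR390. Family medians run from -0.80 in miR408 to 0.82 in miR164.

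The families differed in sign. The median r was -0.80 in miR408 (3 pairs), -0.46 in miR159 and miR319 (12), -0.40 in miR390 (10), -0.29 in miR165 and miR166 (75), -0.16 in miR160 (9) and -0.02 in miR156, miR157 and miR529 (12). It was positive in miR828 (0.23, 1 pair), miR397 (0.36, 1 pair), miR169 (0.50, 5 pairs) and miR164 (0.82, 5 pairs). miR408 and miR390 kept their sign under the alternatives run, including each tree left out and values taken within age groups. The single pair of miR397 did too, but its r was -0.91 without the 2 trees farthest from the median of the miRNA. The sign of miR165 and miR166 turned without VC600 B (0.04) and that of miR159 and miR319 without VC200 A (0.34). That of miR160 turned without VC20 A or VC200 A (up to 0.25). The median of miR156, miR157 and miR529 kept its sign in only 11 of 17 alternatives and was 0.46 within age groups. The positive medians of miR164, miR169 and miR828 became negative (-0.19, -0.68 and -0.95) once the mean of each age group had been subtracted, a value that rests on 3 differences between trees A and B.

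The family of miR165 and miR166 had the highest counts among the pairs, and HD-ZIP III factors, its targets, act in the differentiation of cambial cells. All 5 HD-ZIP III genes are listed for 15 of its 17 entries within the limits, and 58 of these 75 pairs had an r below 0. The entry with the highest level, gma-miR166u, had 58568 and 56335 CPM (VC20), 61401 and 64810 (VC200) and 128751 and 140076 (VC600). Both VC600 trees lay above all the others. In the edgeR quasi-likelihood test with TMM scaling it was higher in VC600 than in VC20 by 1.76 in log2 (adjusted p = 5.7e-04) and than in VC200 by 1.30 (adjusted p = 0.0038). ath-miR166a-3p rose likewise, by 2.0 over VC20 (adjusted p = 4.6e-04).

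No HD-ZIP III gene was called lower where these entries were higher, but calls were rare. Only 0.0317% of all 22068 genes were called lower in VC600 vs VC20 and 0.0136% in VC600 vs VC200. All 5 genes had a lower mean in VC600 than in VC20, with log2 changes of -0.89 to -0.15 (SE 0.22 to 0.53). The changes in VC200 vs VC20 were -0.94 to -0.10. In VC600 vs VC200, *Gb_10259* was lower (-0.51) and the others were higher by 0.01 to 0.32. *Gb_02083*, annotated as HOX32 of rice (scaffold10919, 519363 to 525014, + strand), had 38 and 60.3 FPKM (VC20), 20.7 and 46.0 (VC200) and 46.4 and 20.9 (VC600). Trees A and B of VC200 and of VC600 differed by more than 2-fold, so all 3 groups overlapped. *Gb_22761*, annotated as ATHB-15 (scaffold3748, 651971 to 657843, - strand), had 28.5, 38.3, 9.37, 29.1, 19.7 and 15.3 FPKM in the same order. VC200 A was the lowest tree for 4 of the 5 genes, with *Gb_10259* as the exception. None of the 5 genes was called between any groups, with limma adjusted p values from 0.31 to 0.99.

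The pattern within the family depended on the entry. For gma-miR166u, r was -0.31 with *Gb_02083*, -0.51 with *Gb_10259*, 0.10 with *Gb_18240*, -0.07 with *Gb_18245* and -0.35 with *Gb_22761*. A second set of nearly identical entries behaved otherwise: mtr-miR166b had 16361 and 14555 CPM (VC20), 17864 and 16880 (VC200) and 18387 and 18250 (VC600). It varied little, and VC20 lay below the other 4 trees. Its r was -0.66 with *Gb_02083*, -0.60 with *Gb_10259*, -0.58 with *Gb_18240*, -0.61 with *Gb_18245* and -0.77 with *Gb_22761*. Its log2 fold change of VC600 over VC20 was 0.77 (edgeR adjusted p = 0.026), short of the limit of 1 for a call, and just past it with RLE scaling. Over all 17 entries of the family, r between pairs of entries ran from -0.90 to 1, with a median of 0.68. These include gra-miR166c and osa-miR166d-5p, which have no HD-ZIP III pair, so the range is not that of entries listed for these genes alone. osa-miR166d-5p was lower in VC600 (23.1 and 24.2 CPM) than in VC20 (40.5 and 51.7 CPM).

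**Figure D3:**
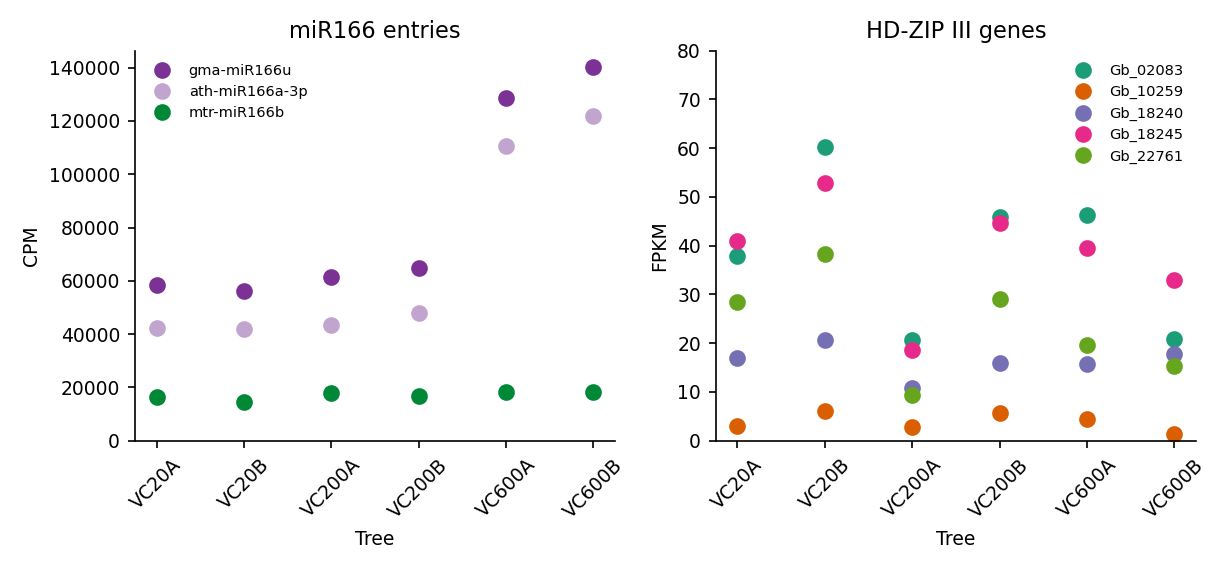
Levels in each of the 6 trees (x axis) of 3 miR166 entries (left, y axis in CPM) and of the 5 HD-ZIP III genes (right, y axis in FPKM), 1 point per tree and a colour per entry or gene. gma-miR166u and ath-miR166a-3p are highest in both VC600 trees, while the HD-ZIP III genes overlap between age groups.

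miR408 and miR397 act on copper proteins in other plants: miR408 on blue copper proteins and miR397 on laccases, which polymerize lignin in wood. ppt-miR408b had 97.9 and 73.2 CPM (VC20), 8.45 and 3.8 (VC200) and 2.44 and 7.11 (VC600). Both VC20 trees lay above all the others. It fell by 3.62 in log2 in VC600 relative to VC20 (edgeR adjusted p = 0.0057), and this call held under all 10 alternatives. The fall in VC200 (-3.51, adjusted p = 0.024) was not called once VC20 A, VC20 B, VC200 A or VC200 B was left out (adjusted p from 0.072 to 0.114).

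The listed target *Gb_11841*, annotated as a basic blue protein (scaffold1922, 1467095 to 1467921, - strand), had 968 and 790 FPKM (VC20), 939 and 1414 (VC200) and 2121 and 1551 (VC600). VC600 lay above all other trees, while VC20 and VC200 overlapped. Pearson r was -0.80 (exact permutation p = 0.064, adjusted p = 0.66) and Spearman rho -0.77 (exact permutation p = 0.10). It was -0.81 without the 2 trees farthest from the median miRNA level, -0.78 within age groups and -0.92 to -0.71 with 1 tree left out. The difference of the gene between VC600 and VC20 was 1.05 in log2 (SE 0.30) and was not called (limma adjusted p = 0.26).

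pab-miR397 fell from 1711 and 1013 CPM (VC20) to 75.2 and 55.4 (VC200) and 12.8 and 13.5 (VC600). The 3 groups did not overlap. Relative to VC20, the log2 change was -4.06 in VC200 (edgeR adjusted p = 0.0033), and it was -6.17 in VC600 (adjusted p = 4.6e-04). The step of -2.11 from VC200 to VC600 (adjusted p = 0.017) was not called without VC200 A or VC600 A (adjusted p from 0.069 to 0.072).

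Its target *Gb_11065*, annotated as LAC11 (scaffold18254, 275623 to 278011, - strand), had 20.8 and 15.1 FPKM (VC20), 1.22 and 1.35 (VC200) and 6.56 and 18.5 (VC600). VC200 lay below all the other trees, and VC20 and VC600 overlapped. The correlation was 0.36 over all trees (exact permutation p = 0.41, adjusted p = 0.84), rho was 0.31 (exact permutation p = 0.56), and r was -0.91 without the 2 farthest trees, so no direction can be given. The change of the laccase in VC200 vs VC20 was -3.03 in log2 (SE 0.45, limma adjusted p = 0.058) and was called only without VC600 A or VC600 B, or with a pseudocount of 0.1. The xylem markers moved with it: *Gb_31853*, named IRX3, another cellulose synthase, had 31.7 and 30.7 FPKM (VC20), 1.48 and 3.09 (VC200) and 10.6 and 20.3 (VC600). Their part in the laccase result was not tested. 2 predicted entries are also listed for *Gb_11065*: novel_160, at 74.9 and 133 CPM in VC20 and 0.542 to 1.22 in the other trees (r of 0.63), and novel_148 (r of -0.19).

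miR164 restrains NAC transcription factors that act at organ boundaries and in senescence in *Arabidopsis*. ath-miR164c-5p had 3634 and 2982 CPM (VC20), 5510 and 6189 (VC200) and 16289 and 18802 (VC600). The 3 groups did not overlap. It rose by 2.94 in log2 in VC600 vs VC20 (edgeR adjusted p = 4.6e-04) and by 1.8 over VC200 (adjusted p = 0.0044), both called under all 10 alternatives. Its difference of 1.15 in VC200 vs VC20 (adjusted p = 0.048) was not called when any of the 4 trees compared was left out (adjusted p from 0.0998 to 0.247).

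*Gb_13930*, annotated as NAC100 (scaffold2170, 1304262 to 1306025, - strand), had 5.01 and 3.73 FPKM (VC20), 5.14 and 6.86 (VC200) and 18.7 and 8.60 (VC600), with no overlap of VC600 with the others. The target thus went with its miRNA: r was 0.85 (exact permutation p = 0.013, adjusted p = 0.66), rho 0.94 (exact permutation p = 0.017), and r was 0.89 without the 2 farthest trees and 0.80 to 0.97 with 1 tree left out. Within age groups it was -0.13, so the positive value lay between the age groups. Its log2 change in VC600 vs VC20 was 1.37 (SE 0.37), not called by limma (adjusted p = 0.26).

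**Figure D4:**
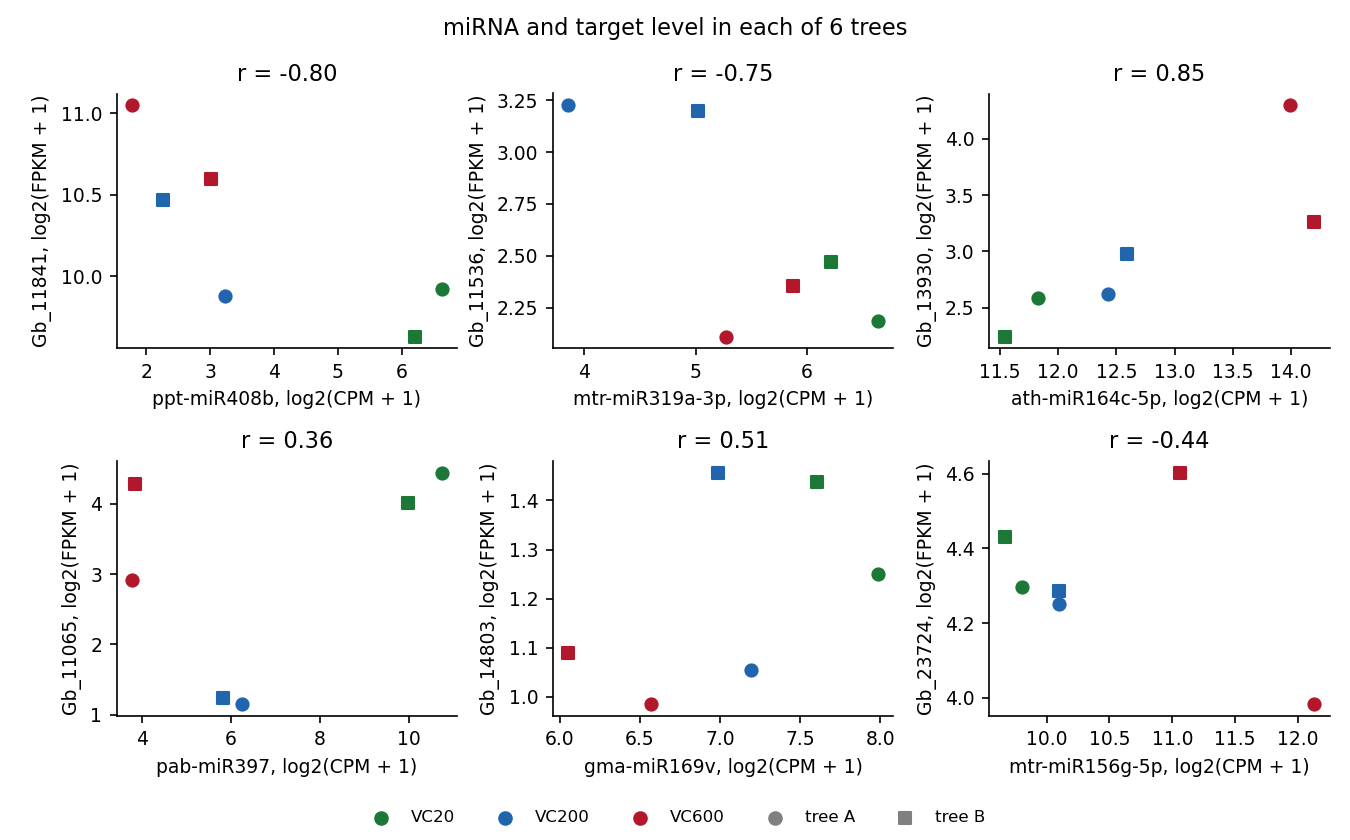
Target log2(FPKM + 1) (y axis) against miRNA log2(CPM + 1) (x axis) in 6 pairs of a family with its classical target, 1 point per tree, with colour for the age group and shape for the tree letter. *Gb_11841* falls as ppt-miR408b rises (r of -0.80), and *Gb_13930* rises with ath-miR164c-5p (r of 0.85).

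miR159 and miR319 act on GAMYB and TCP factors. mtr-miR319a-3p had 98.6 and 73.2 CPM (VC20), 13.5 and 31.5 (VC200) and 37.8 and 57.6 (VC600), and VC200 lay below the other trees. No comparison was called by edgeR, while DESeq2 called VC600 higher than VC200 (log2 change of 1.45, adjusted p = 0.0463). The GAMYB gene *Gb_11536* (scaffold1890, 578356 to 580436, + strand) had the opposite pattern, with 3.55 and 4.53 FPKM (VC20), 8.36 and 8.19 (VC200) and 3.31 and 4.11 (VC600). VC200 stood above the others, which overlapped. The r was -0.75 (exact permutation p = 0.093, adjusted p = 0.66), rho was -0.60 (exact permutation p = 0.24), and r was -0.44 without the 2 farthest trees, and it was -0.01 within age groups, so it lay between VC200 and the rest. A second GAMYB gene, *Gb_23921*, had an r of -0.67, which turned to 0.39 without VC200 A. The change of *Gb_11536* was 0.89 in log2 (SE 0.20) in VC200 vs VC20, not called by limma (adjusted p = 0.10).

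miR156 holds back SPL factors and with them the passage from juvenile to adult growth in flowering plants. mtr-miR156g-5p had 891 and 811 CPM (VC20), 1094 and 1095 (VC200) and 4482 and 2138 (VC600). VC600 lay above all the other trees, and the rise over VC20 was 2.44 in log2 (edgeR adjusted p = 0.0043). *Gb_23724*, annotated as SPL3 of rice (scaffold3961, 257223 to 262726, - strand), stayed within 14.8 and 23.3 FPKM, with its lowest and its highest value in VC600 A and B. Its r was -0.44 over all trees and -0.99 within age groups, and it ran from -0.96 to 0.69 with 1 tree left out, the positive value being that without VC600 A. For the other SPL gene, *Gb_27198*, r was -0.002. The entries of the family went different ways: ath-miR156a-5p was highest in VC200 (848 and 898 CPM) and far-miR529 in VC20 (161 and 75.7 CPM, against 6.09 to 13.5 in the others).

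miR169 acts on NF-YA subunits of a CCAAT-binding factor. gma-miR169v was lower in each older group, at 252 and 194 CPM (VC20), 145 and 126 (VC200) and 93.8 and 65.4 (VC600), but no comparison was called. *Gb_14803*, annotated as NFYA5, stood at 0.98 to 1.74 FPKM with overlapping groups, and r was 0.51, or -0.68 within age groups. miR828 acts on MYB factors. vvi-miR828a fell by 3.19 in log2 in VC600 relative to VC20 (edgeR adjusted p = 0.0051), from 17.6 and 18.5 CPM to 1.22 and 1.42. *Gb_22883*, annotated as MYB3, stood between 3.86 FPKM in VC200 B and 16.3 in VC20 A, with an r of 0.23 that turned to -0.12 without VC20 A and to -0.95 within age groups.

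Auxin response factors are the targets of miR160, and they turn genes on or off in response to the hormone auxin. ath-miR160a-5p had 46.6 and 71.4 CPM (VC20), 77.7 and 77.1 (VC200) and 40.2 and 44.1 (VC600). The 3 genes annotated as ARF18 of rice gave r values of 0.03 (*Gb_25507*), -0.16 (*Gb_33804*) and -0.29 (*Gb_39786*), and the first became -0.39 with TMM scaling. Neither the gene levels (4.36 to 13.2 FPKM over the 3 genes) nor the miRNA set the groups apart in a call.

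miR390 is best known for cutting the noncoding TAS3 RNA, and the protein genes listed for it here are receptor-like kinases, counted above as its target class. Its 3 entries have identical counts, with 37.8 and 97.2 CPM (VC20), 57.4 and 26.6 (VC200) and 95 and 129 (VC600). VC600 B was highest and VC200 B lowest. The kinases were *Gb_20520* (annotated as PXC3, r of -0.69), *Gb_02803* (HSL1, -0.54), *Gb_15684* (BAM1, -0.48), *Gb_00189* (BAM1, -0.46), *Gb_05126* (RCH1, -0.34), *Gb_18261* (SOBIR1, -0.16) and *Gb_12828* (0.25). *Gb_20520* had 46.2 and 38.7 FPKM (VC20), 42.9 and 61.4 (VC200) and 34.4 and 47.1 (VC600), with its highest value in the tree of lowest miR390. That r was 0.13 without the 2 farthest trees. The family median was negative with any 1 tree left out (-0.56 to -0.11).

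Among families without an annotated classical target within the limits, miR396 had the most pairs. Its 13 entries have 114 pairs with 45 targets, of which 22 are annotated, and none of those 22 is named as a growth-regulating factor, its usual target. The median r of the pairs was 0.24, with 32 below 0, and the unlisted combinations of the same entries had a median of 0.22. vvi-miR396b had 65.8 and 76.1 CPM in VC600 against 676 and 474 in VC20, and fell by 2.49 in log2 (edgeR adjusted p = 0.0052). The 18 targets listed for it had a median r of 0.13.

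Among entries predicted by the authors, novel_469 had by far the most targets within the limits, 135 of 1185 pairs. It had 15336 and 15239 CPM (VC20), 11289 and 15118 (VC200) and 38784 and 34267 (VC600). Both VC600 trees stood above all the others, with log2 changes of 1.78 over VC20 (edgeR adjusted p = 0.0013) and 1.66 over VC200 (adjusted p = 0.0031). Of its 135 pairs, 103 had an r below 0, with a median of -0.29, and 15 were at -0.8 or lower against 1 at 0.8 or higher. With targets of other pairs not listed for it the median was -0.08, with 55.4% below 0. Without VC600 A the median of the listed pairs was -0.043 with 69 below 0 (51.1%), and within age groups it was -0.11 with 54.1% below 0.

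Of these targets, 70 are annotated as pentatricopeptide repeat (PPR) proteins, a large plant family that binds and edits RNA in mitochondria and chloroplasts. Their median r was -0.37, with 54 below 0 and 14 at -0.8 or lower. For 50 PPR genes that are not listed for novel_469 but pass the FPKM limit the median was -0.08, with 27 below 0 and 2 at -0.8 or lower, and for all 21270 genes at that limit it was -0.04. The 65 other targets had a median of -0.26, with 1 at -0.8 or lower. The differences in level were small: the median over the 70 PPR targets was 2.36 and 2.12 FPKM (VC20), 1.93 and 1.98 (VC200) and 1.73 and 1.99 (VC600). VC20 A was highest and VC600 A lowest, and VC600 B lay just above both VC200 trees. The PPR median was -0.56 to -0.12 with 1 tree left out and -0.20 within age groups. Stricter limits (100 CPM and 5 FPKM) left only 4 of the 135 pairs, too few to describe. All 135 values share 1 miRNA profile, so they are not independent of each other. The PPR class was chosen after the values had been seen.

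Leaving out novel_469, a comparison added after the values had been seen, brought the listed median to within 0.034 below the unlisted one. With the classical pairs left out as well, 917 pairs had a median r of 0.07, with 45% below 0, and the difference was 0.010 in the other direction. Without these pairs the listed median was thus no longer below the unlisted one.

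**Figure D5:**
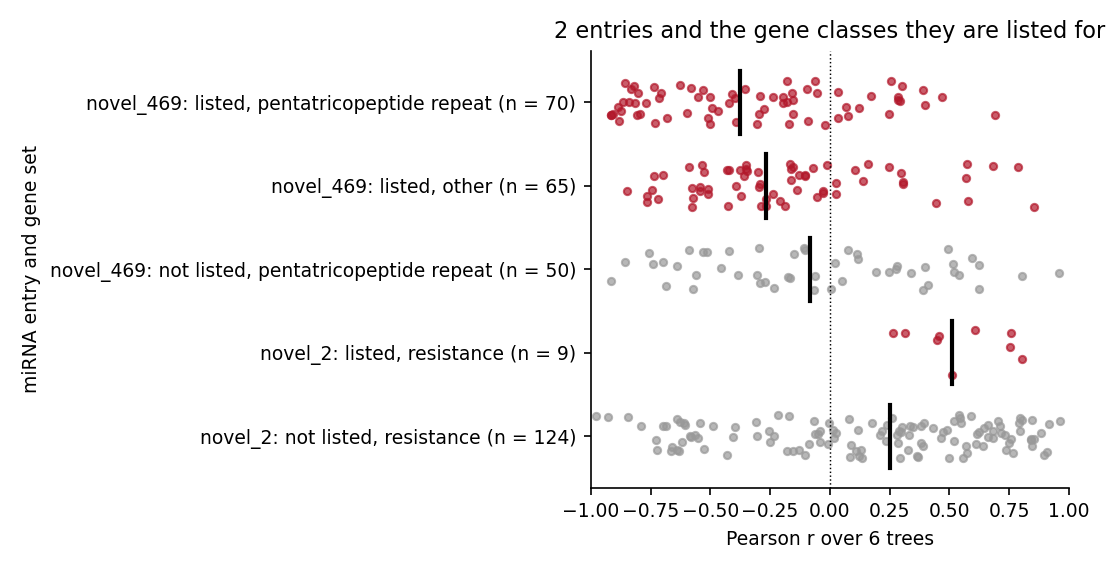
Pearson r over 6 trees (x axis) of novel_469 and of novel_2 with sets of genes (y axis), where red points are listed targets, grey points are genes of the same class that are not listed, and the bar is the median. For novel_469 the 70 listed PPR genes have a median of -0.37 and the 50 unlisted ones -0.08, and for novel_2 the 9 listed resistance genes have 0.51 and the 124 unlisted ones 0.25.

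Pairs with disease resistance genes, a class chosen by annotation after the values had been seen, went the other way. Among other classes grouped so, the median r was -0.05 for receptor-like kinases (30 pairs) and -0.25 for F-box proteins (15 pairs). Of 29 pairs of 10 entries with 22 genes annotated as TIR or NBS-LRR resistance proteins, intracellular receptors that sense pathogens, 4 had an r below 0 and 5 were at 0.8 or higher. The median was 0.48, against 0.13 for the same genes with entries not listed for them, and it was positive in all alternatives (0.35 to 0.67). novel_2, the predicted entry with the highest level among the pairs, is listed for 9 of these genes. It had 57765 and 73577 CPM (VC20), 59102 and 66803 (VC200) and 42046 and 37759 (VC600).

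VC600 was lowest in CPM, but with TMM scaling the log2 change of novel_2 vs VC20 was -0.19 (edgeR adjusted p = 0.43), so no difference was called. All 12 targets of novel_2 had a positive r, with a median of 0.53, but with TMM scaling the median was 0.31 and 3 of the 12 were below 0. Its 9 resistance targets had a median of 0.51, against 0.25 for 124 resistance genes not listed for it and 0.10 for all genes at the limit. *Gb_26262*, annotated as a Toll/interleukin-1 receptor-like protein, had 74.2 and 126 FPKM (VC20), 147 and 78.9 (VC200) and 20.8 and 50.1 (VC600). VC600 lay below the other trees, and r was 0.76, or -0.12 within age groups.

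The other entries with the most targets showed smaller differences from their unlisted combinations. novel_113 (23 targets) had a median r of -0.26 and the same value unlisted, and novel_279 (23) had -0.15 against -0.09. hbr-miR156 (20) had 0.02 against -0.10, and vvi-miR396b (18) had 0.13 against 0.27. Of the entries with the highest CPM, the miR166 entries gma-miR166u, ath-miR166a-3p, zma-miR166h-3p and cpa-miR166e had median r values of -0.19, -0.16, -0.28 and -0.44 over their 6, 6, 9 and 11 targets. The last 3 have nearly equal counts and differ in their listed targets.

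The 5 lowest and 5 highest r, chosen for that value and so without a test, all belonged to pairs outside the classical list. The lowest was gma-miR169v with *Gb_27938* (scaffold4926, 1288671 to 1291772), not annotated, at -0.99. The gene had 1.06 and 1.19 FPKM (VC20), 1.38 and 1.58 (VC200) and 1.73 and 1.91 (VC600), so the trees ranked by the gene in the reverse order of the miRNA (rho of -1), and r was -0.91 within age groups. novel_334 with *Gb_27447* followed at -0.95, novel_469 with the PPR gene *Gb_02060* at -0.92, ath-miR172a with *Gb_41818* at -0.91 and mdm-miR396a with the kinase gene *Gb_36292* at -0.91. *Gb_02060* had 1.04 to 1.24 FPKM in VC20 and VC200 and 0.72 and 0.90 in VC600, a small difference between low values. *Gb_36292* alone of these turned positive within age groups (0.18).

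The highest r was 0.98, of novel_48 with *Gb_29794*, also not annotated. novel_48 had 2975 and 1797 CPM (VC20), 1024 and 1277 (VC200) and 1806 and 566 (VC600), and the gene 106 and 93.0, 60.5 and 69.9, and 86.1 and 38 FPKM in the same order. Both followed the difference between trees A and B inside each group, with an r of 0.97 within age groups. novel_18 with *Gb_04201*, annotated as a Toll/interleukin-1 receptor-like protein, had 0.97, novel_115 with *Gb_34724* had 0.96, novel_64 with *Gb_33111* had 0.95 and novel_383 with *Gb_27858* had 0.92. The value of novel_18 rested on the VC600 trees and was -0.14 without the 2 farthest trees.

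Age groups were compared last, to ask whether targets of miRNAs that changed moved the other way. edgeR was used for entries and limma for genes, where a call needs a log2 change of at least 1 beside an adjusted p below 0.05. Of the 218 entries of the pairs, 63 were lower and 40 higher in VC600 than in VC20, against 27.5 and 19% of all 357 entries tested. In VC600 vs VC200, 52 were lower and 34 higher (24.1 and 16.2% of all), and in VC200 vs VC20 14 were lower and 6 higher (5.32 and 2.8% of all). The split depended on the scaling: TMM gave 41.0% of calls in VC600 vs VC20 as higher, RLE (relative log expression) 50% and DESeq2 51.2%. The median log2 change of all entries was -0.26 with TMM and -0.02 with RLE, so counts of lower and higher entries are relative to that shift.

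Few of the target genes were called. Of 797 targets tested, 5 were lower and 1 higher in VC200 than in VC20 (0.657 and 0.208% of all 22068 genes), and 0 were called in VC600 vs VC20 (0.0317 and 0.0227% of all genes) or VC600 vs VC200 (0.0136 and 0.00906%). At an unadjusted p under 0.05, limma gave 148 targets in VC200 vs VC20 (18.6%, against 19.8% of all genes), 98 in VC600 vs VC20 (12.3% against 14.5%) and 111 in VC600 vs VC200 (13.9% against 18%), in each case a lower share than over all genes. In VC600 vs VC20, 330 pairs had an entry that rose, and 76.1% of their targets had a lower mean in VC600, against 68.5% of all targets. 287 pairs had an entry that fell, and 32.1% of their targets had a higher mean, against 31.5% of all. In VC600 vs VC200 the corresponding shares were 56% lower (52.3% of all) and 53.1% higher (47.7% of all). In VC200 vs VC20 they went apart, at 59.4% lower (63.2% of all) for 32 pairs and 45% higher (36.8% of all) for 60 pairs. These shares count pairs while those of all targets count genes. Among pairs whose entry was not called, 65.7% of targets were lower and 34.3% higher in VC600 vs VC20. The same shares were 44.5 and 55.5% in VC600 vs VC200, and 65.4 and 34.6% in VC200 vs VC20. Beside these, targets of entries that rose were lower more often in both VC600 comparisons, but targets of entries that fell were higher less often. The differences were not tested. novel_469, which has 135 pairs within the limits, was called higher in both VC600 comparisons. Its single profile thus weighs heavily in the shares for entries that rose, and nearly identical miR166 entries add pairs with the same genes.

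In 1 pair both partners were called, and they went the same way. novel_400 was lower in VC200 than in VC20 with a log2 change of -2.55 (edgeR adjusted p = 0.012), and its target *Gb_25749*, annotated as a homolog of BCCIP, had -1.23 (SE 0.17, limma adjusted p = 0.049). The gene had 28.3 and 33.3 FPKM (VC20), 12.7 and 12.3 (VC200) and 16.3 and 13.4 (VC600). Both VC20 trees stood above all the others, and r was 0.72. The call of the gene held in only 2 of 11 alternatives. It was lost when any of the 4 trees compared was left out (adjusted p from 0.197 to 0.296), and also with all 9 RNA libraries, a pseudocount of 0.1, no filter, the replicate block or quantile normalization. The call of the entry was lost without VC20 A or VC200 A (adjusted p from 0.072 to 0.091).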

How the data were processed

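Gene levels are FPKM values that the authors deposited after alignment with HISAT to the *G. biloba* genome held at GigaDB. For sRNA, the authors assigned reads to miRBase and predicted entries and deposited raw read counts per entry. The submitters' processing notes also name TopHat2 2.0.12, Cufflinks 2.1.1, TopHat and Bowtie. No source used here names the counting tool. The authors predicted targets with psRobot and TargetFinder. 1 degradome library and the trees without sRNA libraries were left out, except that all 9 RNA libraries were tried as an alternative.

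CPM was taken over all 632 entries of the count table, and r on log2 values with a pseudocount of 1. P values of r come from the exact permutation test with Benjamini-Hochberg adjustment over the 1185 pairs. Shuffled pairs were replaced by the full set of combinations that are not listed. In R 4.3.3, the quasi-likelihood F test of edgeR 4.0.16 was run on entries kept by filterByExpr, with TMM scaling. limma 3.58.1 was run on log2(FPKM + 1) of genes that reached 1 FPKM in 2 libraries or more. Fold changes of genes are on the log2(FPKM + 1) scale, which understates changes of low genes. Each comparison is of 2 trees against 2, with the spread shared over 3 groups. DESeq2 1.42.0, RLE scaling, no filter, other pseudocounts, quantile normalization, a tree letter block and each library left out were alternatives. Procedures were tested on simulated data. RNA depth was not used here.

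Classical target classes were matched by annotation names in the study's supplementary tables, of which 1 is shortened, so some targets may lack a name. Named are the classical pairs by the entry with the highest CPM, the 5 lowest and 5 highest r (at most 1 per gene and entry), the 5 entries with most targets and the 5 with the highest CPM, and pairs with both partners called. novel_400, the other entries of *Gb_11065*, *Gb_26262*, ath-miR156a-5p, far-miR529 and mtr-miR166b were named after their values were seen. The classes of PPR and resistance genes, grouped by words in the annotation, were also chosen after that. The members and lists were chosen with earlier results of these data known.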

Additional observations from a re-analysis of the deposited data

How the results depend on the processing

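The listed median r was -0.052 to 0.013 with 1 tree left out, and the share of pairs below 0 was 49.2 to 53.2%, against 44.1 to 46.8% of unlisted combinations. The share at -0.8 or lower was 5.91 to 7.43%, against 5.14 to 6.46% unlisted. That at 0.8 or higher was 5.57 to 7.68%, against 6.67 to 9.57% unlisted. The difference of listed and unlisted medians was -0.120 to -0.079 with 1 tree left out, and was negative under all settings below but the last: -0.062 with quantile normalization, -0.026 without limits, -0.031 with stricter limits and -0.053 within age groups. Within age groups, 10.1% of pairs were at -0.8 or lower, against 10.8% of unlisted combinations, and 8.69% at 0.8 or higher, against 10.4%. TMM library sizes gave 54.3% of pairs below 0, against 47.9% of unlisted combinations. In alternatives chosen after seeing the data, the difference was -0.060 without the classical pairs, -0.034 without novel_469 (48.1% below 0) and 0.010 without both (median 0.071, 45% below 0).

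With 1 library left out, 5 to 22 entries were called in VC200 vs VC20, 90 to 153 in VC600 vs VC20 and 48 to 125 in VC600 vs VC200, and 0 to 382, 0 to 8 and 3 to 34 genes. Genes in VC200 vs VC20 numbered 0 or 1 when a VC20 or VC200 library was left out, and 379 and 382 without VC600 A and B. The 34 genes in VC600 vs VC200 were found without VC600 B. Without a filter, 54 entries and 22 genes were called in VC200 vs VC20. With all 9 RNA libraries, 2 genes were called in VC600 vs VC20 and 1 in VC600 vs VC200, and quantile normalization gave 19 in VC600 vs VC20. The cause was not tested. Deviations of trees with the same letter correlated at -0.016 to -0.106, so the letters do not pair trees. With the letter as a replicate block, 10, 144 and 113 entries and 1, 0 and 3 genes were called in the 3 comparisons. Precision is limited by 6 trees and by entries near 10 CPM.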
